A study of Mus musculus with 18 samples.

Results

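Slc6a6, Fam13a, Lzts2, Cyp2c44 and Primpol are 5 genes that the β-adrenergic agonist isoproterenol (ISO) lowered in brown adipocytes. They were chosen by that response in these same libraries, the fold change of ISO against DMSO, out of 17672 genes in the deposited table, by their symbols. All 5 were counted often enough to be among the 10178 genes tested. Because the ISO response selected the genes, it is described below with its size and error and carries no test.

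The cells were immortalised mouse brown preadipocytes, differentiated in culture with indomethacin in the first days. Every library came from the same engineered line. It carried a stable lentiviral shRNA against Abhd5, which encodes the protein that switches on the triglyceride lipase ATGL, and an mCherry-tagged ABHD5 in pINDUCER20 whose sequence escapes the shRNA and which doxycycline (Dox) induces. The 9 libraries without Dox were labelled ABHD5 KD and the 9 with Dox (1 µg/ml for 24 h, a time the labels give as 24 to 48 h) WT, although the latter still held the shRNA and made ABHD5 from the transgene. No library had Dox without the transgene, so effects of the drug itself and of restored ABHD5 cannot be told apart. In each arm, 3 libraries received the vehicle DMSO, 3 received ISO (10 nM) and 3 received SR-3420 (20 µM), a synthetic ABHD5 ligand that starts lipolysis without the receptor, all for 3 h. The study's methods describe the RNA-seq replicates as independent experiments, while the labels do not name the cultures.

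ISO acts through β-adrenergic receptors, which raise cyclic AMP and activate protein kinase A. The kinase changes transcription in the nucleus and also releases ABHD5 on lipid droplets, so that ATGL is activated and fatty acids are set free. A gene lowered by ISO can therefore be asked whether its fall differed with ABHD5 restored, and whether SR-3420, which engages the ABHD5 step alone, lowered it too.

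The 5 genes have unrelated roles. Slc6a6 encodes TauT, the sodium- and chloride-dependent transporter that brings taurine into cells. Fam13a encodes a protein that has been studied for its part in insulin signalling and fat distribution. Lzts2 encodes a leucine zipper protein that can carry β-catenin out of the nucleus. Cyp2c44 encodes a cytochrome P450 that turns arachidonic acid into epoxides. Primpol encodes a primase and polymerase that restarts DNA synthesis past damaged template.

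On mouse build mm9, Slc6a6 (NM_009320) lay on chromosome 6 at 91634061 to 91709057 on the plus strand. Fam13a (NM_153574) lay on the same chromosome at 58883530 to 58974496 on the minus strand. Lzts2 (NM_145503) lay on chromosome 19 at 45089666 to 45101594 on the plus strand, and Cyp2c44 (NM_001001446) on the same chromosome at 44079512 to 44103737 on the minus strand. Primpol (NM_001001184) lay on chromosome 8 at 47660948 to 47702554 on the minus strand.

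The counted lengths in the table were close to the intron lengths of the 5 genes. The annotation of mm9 gave Slc6a6 15 separate exon blocks and 68828 intron bases, and the table counted 62711 bases, or 91.1% of that intron length. The counted length was 86.1% of the intron length for Fam13a, 98.9% for Lzts2, 99.0% for Cyp2c44 and 87.2% for Primpol. The study's methods name an option that counts over genes, and no source states that exon reads were left out. Abhd5 held 41 to 54 counts per library in DMSO without Dox and 431 to 1211 with Dox, which induces the transgene. The methods describe a construct that keeps the amino acid sequence and do not state whether it has introns. If it has none, its reads lie in exons, and exon reads were counted for Abhd5. For the 5 genes the share of exon reads was not tested. How far their values follow unspliced RNA, as reads in introns do, or also spliced mRNA is therefore not certain. Fam13a holds an annotated transcript on the opposite strand at 58915649 to 58952077 that covers 35903 of its intron bases. As no source states that strand was used in counting, reads of that transcript cannot be told apart from those of Fam13a. Primpol shared 3991 bases with Cenpu on the other strand and Lzts2 shared 198 bases with Pdzd7, and the same limit holds there.

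The stretches upstream of the start sites are shown because the 5 genes moved together under ISO. RefSeq promoters were matched for 3 of the 5 genes, Fam13a, Lzts2 and Primpol, from a table built on GRCm38.p6, and each stretch of 250 bases was found once, unchanged, in the mm9 genome. The Fam13a stretch lay at chr6:58974497-58974746 (minus strand), directly before the start in the deposited table. For Lzts2, 1 stretch at chr19:45089416-45089665 (plus strand) ended directly before that start, and another at chr19:45092375-45092624 preceded a start site 2959 bases further into the gene. The Primpol stretch lay at chr8:47702582-47702831 (minus strand). Capitals mark, on either strand, the short motifs named after the sequences.
Fam13a: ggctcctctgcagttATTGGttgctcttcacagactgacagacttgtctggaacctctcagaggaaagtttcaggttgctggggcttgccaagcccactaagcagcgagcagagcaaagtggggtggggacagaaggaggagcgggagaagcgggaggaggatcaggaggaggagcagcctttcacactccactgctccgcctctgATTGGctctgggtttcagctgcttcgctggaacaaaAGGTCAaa
Lzts2, first start: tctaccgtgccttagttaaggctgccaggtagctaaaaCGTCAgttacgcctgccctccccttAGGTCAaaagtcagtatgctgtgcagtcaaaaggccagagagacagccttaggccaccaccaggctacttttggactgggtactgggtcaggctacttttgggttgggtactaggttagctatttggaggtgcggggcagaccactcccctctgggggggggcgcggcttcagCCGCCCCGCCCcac
Lzts2, inner start: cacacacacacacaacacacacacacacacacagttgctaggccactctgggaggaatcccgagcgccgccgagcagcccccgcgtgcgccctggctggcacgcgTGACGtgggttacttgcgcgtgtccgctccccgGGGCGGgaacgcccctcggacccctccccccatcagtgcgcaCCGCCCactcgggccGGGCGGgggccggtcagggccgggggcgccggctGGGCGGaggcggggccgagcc
Primpol: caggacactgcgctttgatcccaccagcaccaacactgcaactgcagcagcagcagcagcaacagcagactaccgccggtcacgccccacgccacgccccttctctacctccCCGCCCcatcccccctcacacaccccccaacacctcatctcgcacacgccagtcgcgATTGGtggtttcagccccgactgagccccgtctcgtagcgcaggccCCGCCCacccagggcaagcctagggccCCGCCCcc

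None of these stretches held the full cyclic AMP response element TGACGTCA, which 1.5% of the 32851 promoters in the table held. The short form TGACG, which is contained in the full element, stood in both Lzts2 stretches, at position -212 from the first start and -145 from the inner one, and in 17.8% of all promoters. AGGTCA, a nuclear receptor half-site, stood at -8 in Fam13a and at -187 in Lzts2, and in 14.0% of all promoters. CCAAT stood in Fam13a and Primpol (33.8% of all promoters), and GGGCGG in Lzts2 and Primpol (32.7%). CACGTG stood in none of them and in 6.0% of all promoters. A match of letters is a description and does not show that a factor binds.

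Library totals ran from 689910 to 1956565 counts, with a median of 1145729. Abhd5 itself followed the labels, with 52.6 ± 4.71 CPM (SD, n = 3) in DMSO without Dox and 574 ± 86.1 CPM (SD, n = 3) in DMSO with Dox, where CPM is the count scaled to a common library size adjusted by the trimmed mean of M values (TMM). It also moved with ISO, which raised it to 149 ± 21.9 CPM without Dox (2.84-fold, adjusted p 3.34e-07) and to 827 ± 28.5 CPM with Dox (1.44-fold, adjusted p 0.00502). The arms therefore differed in Abhd5 by a log2 value of 3.46 in DMSO and of 2.48 in ISO. With SR-3420 it stood at 75.7 ± 4.21 and 695 ± 140.3 CPM. The summed level of 7 adipocyte markers was 2766 to 5932 CPM over the libraries, whereas Dio2, a brown adipocyte marker, had no count in any group. Macrophage markers summed to at most 20.2 CPM, endothelial markers to at most 25.8 CPM and muscle markers to at most 2.35 CPM. SR-3420 with Dox replicate 1 stood apart, as its 10 most abundant genes took 35.6% of its counts and its scaling factor, 0.768, was the lowest. The results that rest on this library are given with and without it.

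Slc6a6 was the gene with the smallest p among all lowered genes in both arms, a ranking that follows from the choice. Without Dox it stood at 345, 371 and 370.3 CPM in the DMSO libraries and at 48.6, 68.4 and 90.1 CPM in the ISO libraries. With Dox the DMSO libraries held 353, 344 and 399 CPM and the ISO libraries 105, 93.7 and 97.2 CPM. Every ISO library lay far below every DMSO library of its arm. Without Dox the means were 362 ± 14.8 CPM in DMSO and 69.0 ± 20.7 CPM in ISO (SD, n = 3). ISO thus left 19.4% of the DMSO level, at a log2 fold change of -2.36 (SE 0.16). With Dox the means were 365 ± 29.5 and 98.7 ± 5.80 CPM (SD, n = 3), which left 27.1% at -1.89 (SE 0.15).

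Fam13a showed the response that differed most between the arms among the 5 genes. Without Dox the DMSO libraries held 249, 193 and 244 CPM and the ISO libraries 33.5, 50.6 and 48.8 CPM. With Dox the DMSO libraries held 178, 184 and 231 CPM and the ISO libraries 75.9, 70.9 and 96.3 CPM. The ISO groups lay below the DMSO groups in both arms, and the ISO libraries with Dox lay above all ISO libraries without it. The log2 fold change was -2.36 (SE 0.18) without Dox, leaving 19.5% of the DMSO level, and -1.28 (SE 0.16) with Dox, leaving 41.1%.

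Lzts2 was lowered by nearly the same factor in the knockdown and the rescued cells. Without Dox the DMSO libraries held 281, 258 and 285 CPM and the ISO libraries 74.6, 73.4 and 99.8 CPM. With Dox the DMSO libraries held 362, 286 and 400.0 CPM and the ISO libraries 126, 96.9 and 108 CPM. The groups were well separated in both arms. The log2 fold change was -1.72 (SE 0.16) without Dox and -1.66 (SE 0.15) with Dox, which left 30.3% and 31.5% of the DMSO level.

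Cyp2c44 was the gene with the fewest reads, so its fall is the least precise. Its counts without Dox were 9, 9 and 6 in DMSO and 2, 2 and 3 in ISO, and with Dox 16, 12 and 11 in DMSO and 2, 2 and 4 in ISO. The groups did not overlap, but most ISO libraries held only a few reads. Over the group, 24 reads in DMSO stood against 7 in ISO without Dox, a DMSO to ISO ratio per library size of 3.94 with a 95% counting interval of 1.65 to 10.8. With Dox 39 reads stood against 8, a ratio of 4.35 with an interval of 2.01 to 10.8. These intervals cover counting error only.

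Primpol had the smallest fall of the 5. Without Dox the DMSO libraries held 135, 113 and 113 CPM and the ISO libraries 45.4, 85.3 and 65.3 CPM. With Dox the DMSO libraries held 113, 156 and 104 CPM and the ISO libraries 77.5, 95.3 and 67.4 CPM. The groups were separated in both arms, although the highest ISO library with Dox lay close to the lowest DMSO library. The log2 fold change was -0.88 (SE 0.20) without Dox and -0.62 (SE 0.19) with Dox, which left 54.4% and 65.1% of the DMSO level.

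**Figure D1:**
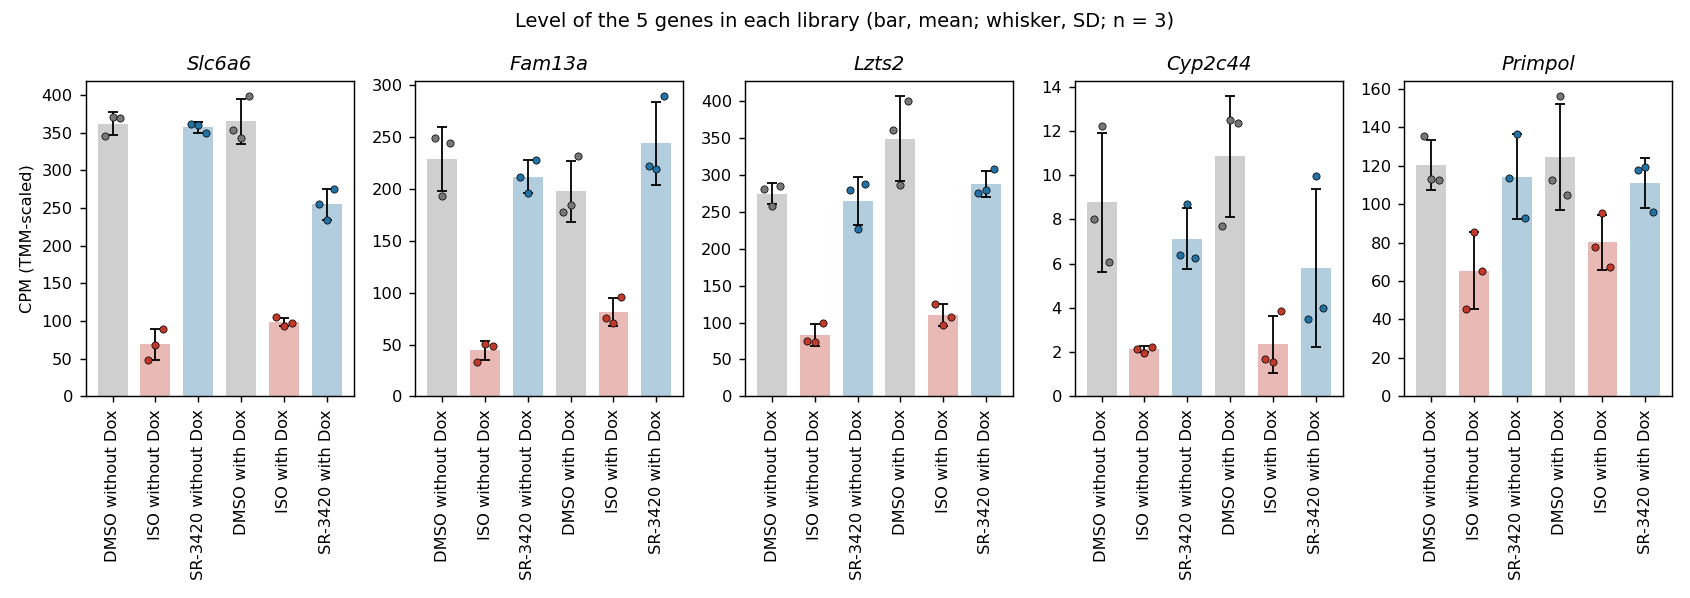
Level of each gene in CPM (linear axis from 0) in the 6 groups, with bars for the mean, whiskers for the SD and points for the 3 libraries of a group. The ISO libraries lie below the DMSO libraries of the same arm for all 5 genes, and with Dox the SR-3420 libraries of Slc6a6 lie below those of DMSO, at a mean of 255 against 365 CPM, as 2 of 3 do for Lzts2 and for Cyp2c44.

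All 5 genes had every ISO library below every DMSO library in both arms, an arrangement found for 19.8% of all genes tested without Dox and 21.4% with Dox. By the call used throughout, a Benjamini-Hochberg adjusted p of 0.05 or less, 13.5% of all genes tested were lower and 14.5% higher with ISO without Dox, and 16.1% were lower and 16.4% higher with Dox. The choice of the 5 genes used these contrasts, so nothing is read from their counts. The median log2 fold change of the 5 was -1.94 without Dox and -1.66 with Dox, beside -0.01 and -0.02 over all genes tested. Ordered from the lowest log2 fold change without Dox, Slc6a6 was number 17, Fam13a 18, Cyp2c44 44, Lzts2 93 and Primpol 858.

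Summed marker levels also moved with ISO. The 7 adipocyte markers summed to 3764 to 3948 CPM in ISO against 2766 to 3327 CPM in DMSO without Dox, and 5818 to 5932 against 3254 to 3733 CPM with Dox. The 7 brown adipocyte markers summed to 348 to 490 against 129 to 206 CPM without Dox, and 622 to 1264 against 189 to 233 CPM with Dox. These lists were thus higher in ISO. The summed level of 6 preadipocyte markers was 104 to 109 CPM in ISO against 143 to 167 CPM in DMSO without Dox, and 105 to 151 against 153 to 173 CPM with Dox. The 4 endothelial markers summed to 21.0 to 25.8 CPM in ISO against 5.34 to 16.2 CPM in DMSO without Dox, and to 17.3 to 22.1 against 7.29 to 11.6 CPM with Dox. The preadipocyte list was thus lower and the endothelial list higher in ISO. The part of these markers in the fall of the 5 genes was not tested. In bulk RNA, fewer cells of a type and less RNA per cell cannot be told apart.

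Per kilobase of counted length, the level in DMSO without Dox was highest for Lzts2, at 30.5 CPM per kb. Slc6a6 followed at 5.78, Primpol at 3.90, Fam13a at 3.09 and Cyp2c44 at 0.399 CPM per kb. The order depends on the length used, here one close to the intron length. Before division by length, Fam13a stood at 229 and Primpol at 120 CPM, and their exon bases were 6328 and 6309. Per kilobase of counted length, Fam13a and Primpol were neighbours at DMSO. They parted in ISO without Dox, where Fam13a stood at 0.597 and Primpol at 2.12 CPM per kb. Lzts2 remained the highest in ISO without Dox, at 9.17 CPM per kb.

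Whether the fall differed with Dox, which restores ABHD5, was read from the difference between the ISO responses with and without Dox (the interaction, on the log2 scale). The value was 1.08 for Fam13a, with a 95% interval of 0.58 to 1.58, a smaller fall with Dox in these libraries. It was 0.48 for Slc6a6, with an interval of 0.04 to 0.92. For Lzts2 it was 0.06 (-0.39 to 0.50), for Primpol 0.26 (-0.30 to 0.82) and for Cyp2c44 -0.18 (-1.92 to 1.57), the widest of the 5. These values used the ISO and DMSO libraries that chose the genes and are descriptions, and the intervals do not allow for that choice. Over all genes tested, 14.1% had an unadjusted p under 0.05 for this difference by edgeR's quasi-likelihood fit.

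**Figure D2:**
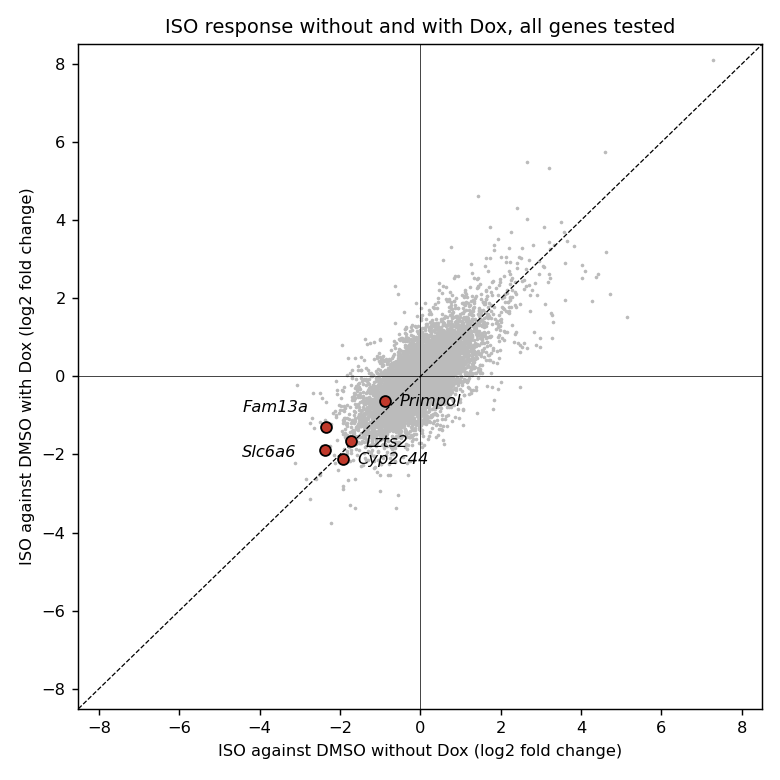
Log2 fold change of ISO against DMSO without Dox (horizontal) and with Dox (vertical) for the 10178 genes tested (grey points), with the 5 genes in red and a dashed line where both responses are equal. Fam13a, at -2.36 and -1.28, lies above the line, and Lzts2, at -1.72 and -1.66, lies on it.

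The levels after ISO are a part of that difference, from the same libraries, and add no separate support. Fam13a averaged 44.3 ± 9.38 CPM in ISO without Dox and 81.0 ± 13.4 CPM in ISO with Dox (SD, n = 3), a log2 difference of 0.85 (SE 0.19). Slc6a6 averaged 69.0 and 98.7 CPM in these groups, a log2 difference of 0.49 (SE 0.17). For both genes the ISO libraries of the arms were separate, but the share of all genes with such a separation was not counted. For Lzts2, Primpol and Cyp2c44 the ISO libraries of the arms overlapped, with log2 differences of 0.40, 0.29 and 0.09.

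Dox without agonist was next examined in the DMSO libraries, of which those with Dox had ABHD5 restored. None of the 5 genes passed the test by edgeR's quasi-likelihood fit, beside 0.0884% of all genes tested called lower and 1.09% called higher, and 1000 of all genes had an unadjusted p under 0.05. Slc6a6 had the same level in both arms, with a log2 fold change of 0.01 (95% interval -0.27 to 0.29). Lzts2 was the only one whose libraries did not overlap, with 349 ± 57.8 CPM with Dox against 275 ± 14.4 CPM without (SD, n = 3). How many of all genes were separated in this way was not counted. Its log2 fold change was 0.34 (interval 0.05 to 0.64, adjusted p 0.392). All these DMSO libraries entered the contrasts that chose the genes. Fam13a (-0.23), Cyp2c44 (0.27) and Primpol (0.03) overlapped between the arms.

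SR-3420 was then compared with DMSO in the cells without Dox, the knockdown state. None of the 5 genes passed, beside 0.0688% of all genes tested called lower and 0.698% called higher, and 893 of all genes had an unadjusted p under 0.05. Slc6a6 held 362, 361 and 349 CPM with SR-3420, within the range of the DMSO libraries. Its log2 fold change was -0.02 with a 95% interval of -0.30 to 0.26. The intervals were -0.43 to 0.19 for Fam13a, -0.35 to 0.23 for Lzts2, -0.44 to 0.30 for Primpol and -1.10 to 0.61 for Cyp2c44. All 5 genes overlapped DMSO, and adjusted p ran from 0.902 to 0.99. The DMSO libraries are those of the contrast that chose the genes.

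With Dox, SR-3420 lowered 1 of the 5 genes, Slc6a6. Its SR-3420 libraries held 256, 235 and 276 CPM, all below the DMSO libraries at 353, 344 and 399 CPM and all above the ISO libraries at 93.7 to 105 CPM. The mean was 255 ± 20.5 against 365 ± 29.5 CPM (SD, n = 3). The log2 fold change was -0.51 (SE 0.14, 95% interval -0.80 to -0.23, adjusted p 0.0148), which left 70.0% of the DMSO level where ISO left 27.1%. Over all genes tested, 3.37% were called lower and 6.53% higher in this contrast. The 7 adipocyte markers summed to 4471 to 5781 CPM in these SR-3420 libraries against 3254 to 3733 CPM in DMSO, and their part in the result was not tested.

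The Slc6a6 call depended on single libraries. In the paired fit, with the replicate number as a block, it was -0.51 (SE 0.11) with an adjusted p of 0.000628. It passed in 12 of the 15 alternatives that refitted it, and was not called where a log2 fold change of at least 1 was asked for. Without the library that stood apart, SR-3420 with Dox replicate 1, the log2 fold change was -0.51 with an adjusted p of 0.0519. It was -0.45 with an adjusted p of 0.0753 without SR-3420 with Dox replicate 2, and -0.46 with 0.0702 without DMSO with Dox replicate 3. This contrast shares its DMSO libraries with the one that chose the genes.

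Fam13a went the other way under SR-3420 with Dox, though not beyond the test in the fit without pairing. Its SR-3420 libraries held 222, 219.7 and 290 CPM against 178, 184 and 231 CPM in DMSO, and the groups overlapped. The log2 fold change was 0.31 (95% interval 0.0017 to 0.62, adjusted p 0.215). With the replicate number as a block, which the check of pairing allows for these groups, it was 0.31 (SE 0.11, adjusted p 0.0493), so that 2 of the 5 genes passed in the paired fit. Beside these, 5.58% of all genes tested were called lower and 9.83% higher in that fit. Across the other alternatives the adjusted p of Fam13a reached 0.641.

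Lzts2, Cyp2c44 and Primpol did not pass under SR-3420 with Dox. Lzts2 held 276, 280.4 and 309 CPM, a log2 fold change of -0.28 (95% interval -0.57 to 0.01, adjusted p 0.241). Cyp2c44 had 4, 10 and 4 reads against 16, 12 and 11 in DMSO, a log2 fold change of -0.83 with a wide interval of -1.71 to 0.06 (adjusted p 0.259). Leaving out 1 library gave -1.42 to -0.55 for this value. Primpol had -0.15 (interval -0.53 to 0.22, adjusted p 0.675). The libraries of all 3 genes overlapped DMSO. Without SR-3420 with Dox replicate 1 the log2 fold changes were 0.38 for Fam13a, -0.25 for Lzts2, -0.55 for Cyp2c44 and -0.20 for Primpol, and none of these passed (adjusted p 0.211 to 0.671).

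**Figure D3:**
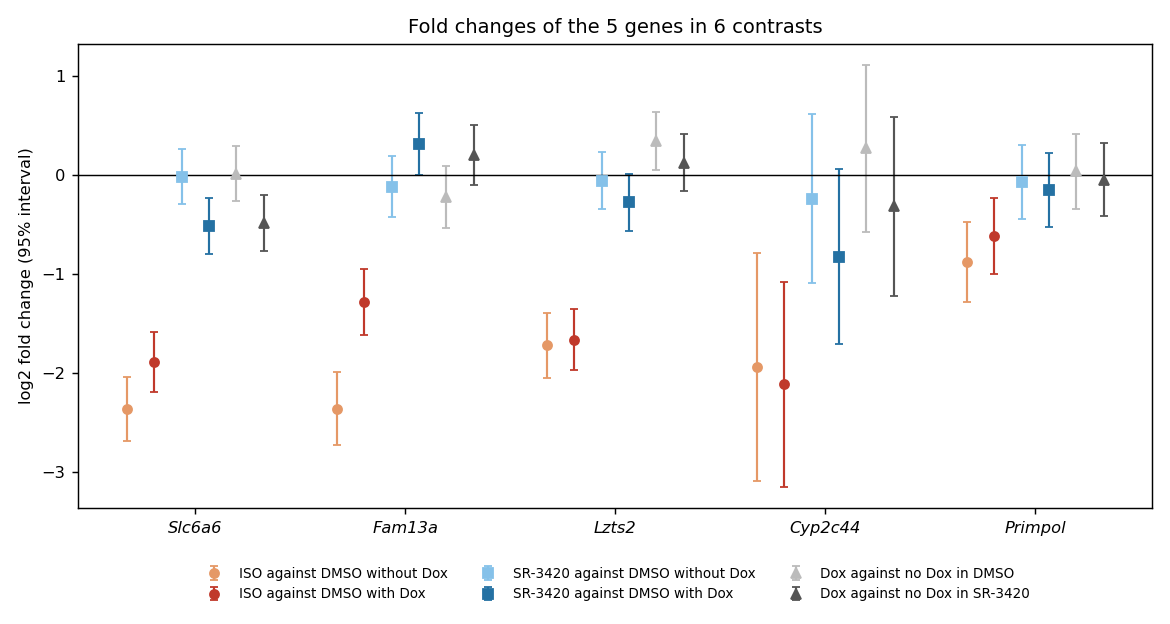
Log2 fold change with its 95% interval for each gene in 6 contrasts, with circles for ISO, squares for SR-3420 and triangles for Dox. Among the contrasts that did not choose the genes, the Slc6a6 intervals for SR-3420 with Dox (-0.80 to -0.23) and for Dox in SR-3420 (-0.77 to -0.20) lie below 0.

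The comparison of SR-3420 libraries with and without Dox used no DMSO or ISO library and so none that chose the genes. Slc6a6 was lower with Dox, at 255 ± 20.5 against 357 ± 7.17 CPM (SD, n = 3). No library overlapped, a separation that was not counted over all genes. The log2 fold change was -0.49 (SE 0.14, 95% interval -0.77 to -0.20, adjusted p 0.0185), and the other 4 genes did not pass, beside 4.28% of all genes tested called lower and 7.26% called higher. Without SR-3420 with Dox replicate 1 the value was -0.48 with an adjusted p of 0.0639. It was -0.42 with 0.0968 without SR-3420 with Dox replicate 2, and -0.49 with 0.0557 without SR-3420 without Dox replicate 1. Fam13a (0.20), Lzts2 (0.12), Primpol (-0.05) and Cyp2c44 (-0.32) overlapped between the arms, and without that replicate 1 they were 0.27, 0.16, -0.09 and -0.03 in this order. The adipocyte markers summed to 4471 to 5781 CPM in the SR-3420 libraries with Dox against 3995 to 4202 CPM without, and the brown adipocyte markers to 226 to 408 against 152 to 213 CPM. Neither overlapped, and their part in the Slc6a6 difference was not tested.

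The test of whether the SR-3420 response itself differed between the arms was passed by none of the 5 genes. The interaction was -0.50 for Slc6a6 (95% interval -0.89 to -0.10, adjusted p 0.265, unadjusted p 0.016) and 0.43 for Fam13a (interval -0.0041 to 0.87, adjusted p 0.421). Lzts2 (-0.22), Cyp2c44 (-0.59) and Primpol (-0.08) had intervals that spanned 0. Without SR-3420 with Dox replicate 1 the values were -0.49 for Slc6a6, 0.50 for Fam13a, -0.18 for Lzts2, -0.31 for Cyp2c44 and -0.12 for Primpol, and none passed. Of all genes tested, 0.216% were called lower and 0.54% higher, and 1227 had an unadjusted p under 0.05. A fall of Slc6a6 with SR-3420 that passed only with Dox is therefore not shown to differ from the response without Dox.

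Genes around the 5 were examined next, taking the nearest tested genes without overlap by the deposited positions, 2 on each side. Pdzd7 and Cenpu, which overlap Lzts2 and Primpol, were thus left out. Of these 20 neighbours, 4 were lower and 2 higher with ISO without Dox, and 7 were lower and 4 higher with Dox. Over all genes tested the shares were 13.5% lower and 14.5% higher without Dox, and 16.1% and 16.4% with Dox. Near Fam13a, Herc3 lay 13.1 kb downstream and fell in both arms, by log2 values of -0.75 (adjusted p 0.000177) and -0.78 (adjusted p 6.24e-05). Gprin3, 328 kb upstream of Fam13a, also fell, by -2.50 (adjusted p 0.000534) and -2.53 (adjusted p 0.000953), on a mean of only 8.17 reads per library. Near Slc6a6, Xpc, a DNA damage recognition gene 168 kb upstream, fell by -0.91 (adjusted p 0.00962) and -1.07 (adjusted p 0.00199). The other 3 neighbours of Slc6a6 passed with Dox alone. Ccdc174, 119 kb downstream, was higher (1.16, adjusted p 0.00214), as was Lsm3, 161 kb upstream (0.80, adjusted p 0.00446), and 4930590J08Rik, 145 kb downstream, was lower (-1.01, adjusted p 0.0383). The calls held in 14 of 14 alternatives for Ccdc174, in 15 of 15 for Lsm3 and in 8 of 14 for 4930590J08Rik. The differences between the arms did not pass for any of these 3 (adjusted p 0.354, 0.58 and 0.945). Ccser1, upstream of Fam13a, passed without Dox (-0.71, adjusted p 0.0481) and not with Dox (0.04), but the difference between the arms did not pass (adjusted p 0.359).

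Other neighbours were higher with ISO, or passed in 1 arm. Acsl1, which activates fatty acids for metabolism and lies 39.5 kb downstream of Primpol, rose by 0.94 without Dox (adjusted p 0.000148) and by 2.57 with Dox (adjusted p 1.83e-12). It also rose with SR-3420, by 1.36 without Dox (adjusted p 2.06e-05) and by 1.72 with Dox (adjusted p 2.59e-08), and the difference between these SR-3420 responses did not pass (adjusted p 0.567). Without SR-3420 with Dox replicate 1 the latter value was 1.76 (adjusted p 1.49e-07). Chuk, upstream of Cyp2c44, rose by 0.53 and 0.50 (adjusted p 0.00449 and 0.00375). Beside Lzts2, the downstream genes Sfxn3 (-1.38, adjusted p 0.000989) and Kazald1 (-1.82, adjusted p 0.00116) were lower with ISO with Dox, but their differences between the arms did not pass (adjusted p 0.123 and 0.499). Kazald1 had a mean of only 9.11 reads per library.

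**Figure D4:**
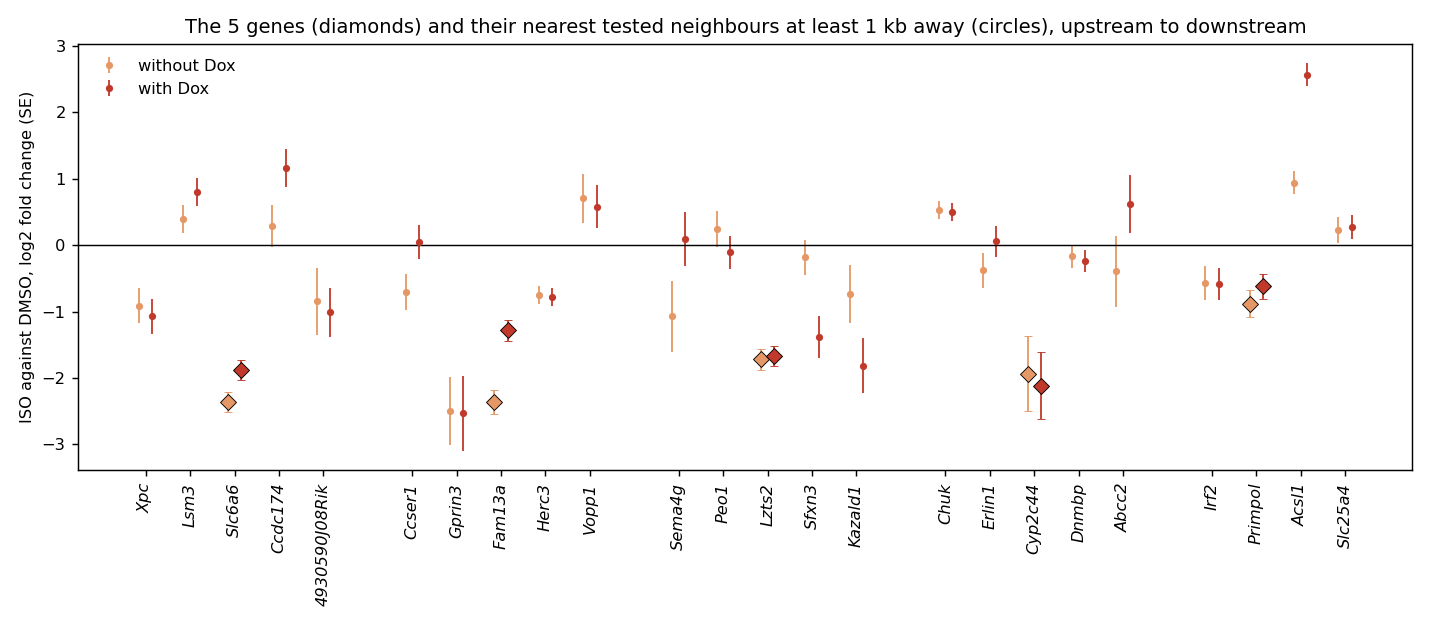
Log2 fold change of ISO against DMSO (whiskers, SE) for each of the 5 genes (diamonds) and its nearest tested neighbours at least 1 kb away (circles), set in order from upstream to downstream, without Dox in orange and with Dox in red. Fam13a at -2.36 and Gprin3 at -2.50 without Dox lie low, the latter on a mean of 8.17 reads per library. Chuk beside Cyp2c44 lies above 0, at 0.53 and 0.50.

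Lists of related genes, fixed with earlier results of these data known, set each gene among its pathway. Over the 5 lists, 62 other genes were tested. With ISO, 11 were lower and 6 higher without Dox, and 12 lower and 9 higher with Dox, with medians of -0.09 in both arms. Of all genes tested, 13.5% were lower and 14.5% higher without Dox, and 16.1% and 16.4% with Dox.

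Among 7 tested genes of taurine synthesis and of transporters related to Slc6a6, 3 were lower with ISO without Dox and none higher, beside 13.5% and 14.5% of all genes tested. Cdo1, the dioxygenase that starts taurine synthesis from cysteine, fell by -0.90 (adjusted p 0.00392), and Csad, the decarboxylase of the next stage, by -0.52 (adjusted p 0.00455). Slc6a9, a glycine transporter of the same family as Slc6a6, fell by -0.99 (adjusted p 0.00791). With Dox 1 of the 7 was lower, beside 16.1% of all genes. It was Slc6a9, at -1.55 (adjusted p 4.03e-05), while Cdo1 stood at 0.38 and Csad at 0.11. The difference between the arms did not pass for Csad (0.63, adjusted p 0.0739), but it passed with the replicate block (0.63, adjusted p 0.00715). The median of the list was -0.52 without Dox and 0.05 with Dox. SR-3420 called none of the 7 in either arm, beside 0.0688% of all genes called lower and 0.698% higher without Dox, and 3.37% and 6.53% with Dox. With the replicate block, Csad was called higher in both (0.39, adjusted p 0.0289, and 0.35, adjusted p 0.0139).

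Among 12 tested genes of the list set around Fam13a, which holds its family and insulin signalling genes, 2 were lower and 3 higher with ISO in each arm, beside 13.5% and 14.5% of all genes without Dox and 16.1% and 16.4% with Dox. Fam13c, a relative of Fam13a, fell by -1.51 without Dox (adjusted p 0.0198) and -1.69 with Dox (adjusted p 0.00984). The insulin receptor substrates rose: Irs1 by 1.83 and 3.36 (adjusted p 9.27e-07 and 1.1e-12), and Irs2 by 1.27 and 1.94 (adjusted p 6.89e-05 and 2.53e-09). With the replicate block, Rock2 was lower with ISO with Dox as well (-0.37, adjusted p 0.0245). SR-3420 with Dox also raised Irs1 (0.96, adjusted p 0.0105) and Irs2 (1.44, adjusted p 4.56e-06), beside 6.53% of all genes called higher. Irs1 passed in 11 of 15 alternatives and Irs2 in 15 of 15. Without Dox none was called, beside 0.698% of all genes called higher, and with the replicate block Irs2 was (0.77, adjusted p 0.0075). Without SR-3420 with Dox replicate 1 the values were 1.17 (adjusted p 0.00346) and 1.42 (adjusted p 4.5e-05). Fam13a and Irs1 thus stood on opposite sides of 0 with ISO in each arm.

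Among 16 tested genes of β-catenin signalling, the pathway Lzts2 is known for, 2 were higher and none lower with ISO without Dox, and 3 were lower and 2 higher with Dox, beside 13.5% lower and 14.5% higher, and 16.1% and 16.4%, of all genes. With the replicate block, Axin1 was lower with Dox as well (-0.40, adjusted p 0.0489). Csnk1a1, a kinase that marks β-catenin for destruction, rose by 1.03 and 0.99 (adjusted p 1.7e-06 and 1.36e-06), and the Wnt co-receptor gene Lrp6 by 0.83 and 0.81 (adjusted p 8.75e-05 and 6.81e-05). With Dox, Lrp5, Bcl9 and Bcl9l were lower with ISO, at -0.54, -0.98 and -0.70. Without Dox they stood at -0.08, -0.61 and -0.27, and their differences between the arms did not pass (adjusted p 0.442, 0.701 and 0.619). The number lower without Dox depended on the scaling, with 2 under upper-quartile factors and 3 with library totals only. None of the 16 was called with SR-3420 in either arm, beside 0.0688% of all genes called lower and 0.698% higher without Dox, and 3.37% and 6.53% with Dox. With Dox, 1 was called higher with RLE factors and 1 lower with library totals only, and with the replicate block Csnk1a1 was called higher (0.42, adjusted p 0.0129).

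Among 7 tested genes of arachidonate metabolism, 2 were lower with ISO in both arms, beside 13.5% of all genes without Dox and 16.1% with Dox, and 2 were higher with Dox, beside 16.4% of all genes. With the replicate block, Por was higher with ISO with Dox as well (0.30, adjusted p 0.0137). Cyp4f13 fell by -1.06 and -0.82 (adjusted p 2.96e-05 and 0.000296), and the epoxide hydrolase gene Ephx1 by -0.91 and -0.56 (adjusted p 0.00553 and 0.049, the latter 0.0527 with RLE factors and passed in 8 of 15 alternatives). Ephx2, whose enzyme breaks down the epoxides that Cyp2c44 makes, was not called without Dox (-0.18) and rose with Dox by 1.04 (adjusted p 4.78e-07). SR-3420 raised Ephx2 without Dox by 0.59 (adjusted p 0.0261), a call that held in 10 of 15 alternatives, beside 0.698% of all genes called higher. With Dox it raised Ephx2 by 1.36 (adjusted p 2.33e-08), Pla2g6 by 0.70 and Por by 0.72, beside 6.53% of all genes. Without SR-3420 with Dox replicate 1 these were 1.39, 0.64 and 0.73 and still passed (adjusted p 1.75e-07, 0.0183 and 0.000596).

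Among 20 tested genes of DNA damage tolerance and priming, the company of Primpol, 4 were lower and 1 higher with ISO without Dox, and 4 lower and 2 higher with Dox, beside 13.5% and 14.5% of all genes without Dox and 16.1% and 16.4% with Dox. Pola2 and Polg2 were lower in both, at -0.74 and -0.61 for Pola2 and -0.71 and -1.03 for Polg2. Of 15 alternatives, the calls held in 14 and 13 for Pola2 and in 9 and 15 for Polg2. With SR-3420 none was called without Dox, and Rev3l (-0.63) and Polg2 (-0.89) were lower and Pola1 (0.53) higher with Dox, beside 0.0688% of all genes called lower and 0.698% higher without Dox, and 3.37% and 6.53% with Dox. With the replicate block, Prim2 (0.39, adjusted p 0.0319) and Rev1 (0.42, adjusted p 0.0228) were called higher as well. The block also called a difference between the SR-3420 responses of the arms for Pola1 (0.88, adjusted p 0.0237) and Rev1 (0.64, adjusted p 0.0479). For ISO with Dox the block added Rad18 and Rev1 to the higher genes and Shprh to the lower ones. The SR-3420 calls of Rev3l, Polg2 and Pola1 with Dox were lost without SR-3420 with Dox replicate 1, where adjusted p was 0.0525, 0.131 and 0.109.

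Of the 62 list genes, 3 passed the test of a difference between the ISO responses of the arms, all with higher values with Dox. Over all genes tested this call was made for 0.57% lower and 1.61% higher. They were Cdo1, Irs1 and Ephx2, and with the replicate block Csad passed as well (0.63, adjusted p 0.00715). Of Cdo1, Irs1 and Ephx2, Cdo1 was the one called lower with ISO without Dox. The call held in 21 of 21 alternatives for Ephx2, in 20 of 21 for Irs1 (adjusted p 0.0542 without DMSO with Dox replicate 1) and in 16 of 21 for Cdo1.

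Genes with the pattern most like each of the 5 over the 18 libraries were sought by Pearson's r of log2 CPM. The points share libraries and groups, so r describes this design and has no test. Slc6a6 was followed most closely by Slc8b1, which encodes a mitochondrial sodium and calcium exchanger (r = 0.98), Nedd4, a ubiquitin ligase (0.97), and Neil3 (0.96). Fam13a was followed by Nedd4 (0.97), Ccdc28a (0.97) and Sort1, which encodes the sorting receptor sortilin (0.96). Sort1 had log2 fold changes of -1.42 with ISO without Dox and -0.56 with Dox.

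Lzts2 was followed by Cgnl1, a junction gene (0.97), Hdac5, a histone deacetylase (0.95), and Poln (0.95). Primpol was followed by Zfp467 (0.92), Morc4 (0.91) and Cep70 (0.91), and Cyp2c44 by Rpl5 (0.92), Tgfbr3l (0.91) and Efcab12 (0.91). The values for Cyp2c44 rest on few reads. Among the 5 genes, r ran from 0.71 for Cyp2c44 with Primpol to 0.96 for Slc6a6 with Lzts2, with the ISO libraries low for each gene.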

How the data were processed

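RNA-seq libraries (TruSeq2) of 6 groups with 3 replicates each were analysed, grouped by the sample labels. According to the study's methods and processing notes, the authors aligned reads to mm9 with STAR 2.4.2a, kept 1 read per position and length with HOMER and used iRNA-seq with its option for counts over genes. What they deposited were raw whole-number counts per gene. Of 16386 genes matched to the annotation by symbol, 66.5% had a counted length no more than 10% from their intron length, and 2.5% from their exon length. Counts were filtered by filterByExpr, scaled by TMM and fitted over all 18 libraries with the quasi-likelihood test of edgeR 4.0.16 (R 4.3.3), 1 mean per group and no covariate. Tests were two-sided, adjusted by Benjamini-Hochberg over all 10178 genes. SEs were derived from the F statistic, and log2 CPM used a prior count of 2. The fit was tested on simulated data.

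Same-numbered libraries deviated together, with all 3 correlations over 0.1, between DMSO and SR-3420 without Dox (0.14 to 0.26), DMSO and SR-3420 with Dox (0.12 to 0.25), DMSO and ISO with Dox (0.16 to 0.26), and ISO without and with Dox (0.13 to 0.25), but not in the other contrasts. The replicate block was therefore taken as a pairing for these.

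The 5 genes and all lists were chosen with earlier results of these data known. Named genes were the 5, Abhd5, the 2 nearest tested genes without overlap on each side, the 3 most alike, and list genes that passed the test or whose count was 5 or fewer. The values of 1 neighbouring gene are not reported here. Alternatives were other scaling factors, other filters, DESeq2 1.42.0, limma-voom (limma 3.58.1), the replicate block, the contrast's groups alone, a log2 fold change of at least 1 and leaving out each library.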

Additional observations from a re-analysis of the deposited data

Results flagged for a closer look

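In 6 results a response differed between the arms without and with Dox by the test of the interaction in edgeR's quasi-likelihood fit. The ISO response of Cdo1, the cysteine dioxygenase gene of taurine synthesis, was higher with Dox by 1.29 on the log2 scale (SE 0.31, adjusted p 0.0246). The ISO response of Irs1, an insulin receptor substrate gene, was higher with Dox by 1.54 (SE 0.33, adjusted p 0.00969). The ISO response of Acsl1, the acyl-CoA synthetase gene downstream of Primpol, was higher with Dox by 1.63 (SE 0.24, adjusted p 0.00017). Ephx2, the soluble epoxide hydrolase gene, differed under both treatments. Its ISO response was higher with Dox by 1.22 (SE 0.19, adjusted p 0.000279) and its SR-3420 response by 0.78 (SE 0.19, adjusted p 0.0376). The ISO response of Abhd5, the gene that sets the arms apart, was lower with Dox, at -0.98 (SE 0.23, adjusted p 0.0194), and this call held in 17 of 21 alternatives. The ISO calls of Cdo1 held in 16 of 21, of Irs1 in 20 of 21, and of Acsl1 and Ephx2 in 21 of 21. The SR-3420 call for Ephx2 held in only 7 of 21 alternatives. It was lost, among others, with upper-quartile factors (0.71, adjusted p 0.065), with library totals only (0.66, adjusted p 0.225) and without SR-3420 with Dox replicate 1, the library that stood apart (0.81, adjusted p 0.0673).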

How the results depend on the processing

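The fall with ISO kept its direction for all 5 genes in both arms under every alternative that could be fitted. Slc6a6 ranged from -2.61 to -2.17 without Dox and from -2.02 to -1.81 with Dox, Fam13a from -2.54 to -2.21 and from -1.42 to -1.15. The difference between the arms ranged from 0.93 to 1.21 for Fam13a, from 0.29 to 0.75 for Slc6a6 and from 0.07 to 0.50 for Primpol. It changed sign for Lzts2 (-0.06 to 0.24, the same sign in 16 of 21 alternatives) and for Cyp2c44 (-0.64 to 0.07, in 17 of 20). With at least 10 counts in every library Cyp2c44 was not tested.

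Of the 5 genes, 1 passed with SR-3420 with Dox and 1 with Dox in SR-3420, Slc6a6 each time. With the replicate block 2 passed in the former, as Fam13a (0.31, adjusted p 0.0493) was added, and the block changed no other call of these genes. With a log2 fold change of at least 1 the number was 0 in both. Leaving out 1 library gave 0 to 1 in both, and Slc6a6 passed in each in 12 of the 15 alternatives that refitted it. No gene passed in the other tested contrasts under any alternative.

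Values near 0 changed sign. With library totals only, Dox in DMSO gave -0.083 for Slc6a6 and -0.0512 for Primpol, and Dox in SR-3420 gave -0.0036 for Fam13a and -0.085 for Lzts2. Without a filter, SR-3420 without Dox gave 0.014 for Slc6a6. Leaving out 1 library, SR-3420 without Dox ranged from -0.062 to 0.0003 for Slc6a6, -0.12 to 0.044 for Lzts2, -0.45 to 0.018 for Cyp2c44 and -0.22 to 0.051 for Primpol. For Primpol, SR-3420 with Dox ranged from -0.26 to 0.027, its interaction from -0.21 to 0.10, Dox in DMSO from -0.15 to 0.13 and Dox in SR-3420 from -0.17 to 0.10. Dox in DMSO ranged from -0.059 to 0.052 for Slc6a6. The cause of these changes was not tested. Of 80 counts of list genes called lower or higher, 35 moved by over 1.5 times, or from or to 0, under at least 1 alternative.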
